A study of Mus musculus with 12 samples.

Results

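The 10 genes described here, Nfat5, Slc5a3, Slc6a6, Slc38a2, Akr1b3, Hspa4l, Sgk1, Wnk1, Oxsr1 and Stk39, make up a short list of the NFAT5 and hyperosmotic salt response, and they were picked by gene symbol from the 20792 genes listed for each library. The question put to them was whether the transcripts with which cells answer high salt were altered in bone marrow hematopoietic stem and progenitor cells (HSPCs) by a high-salt diet (HSD) or by intracerebral hemorrhage (ICH). Bulk RNA-seq was available for 12 libraries of HSPCs from wild-type male mice, sorted as lineage-negative, CD127-negative, c-kit-positive and Sca-1-positive cells, with 3 libraries in each of 4 groups. HSD ICHD7 mice had eaten HSD for 8 weeks, then received an injection of autologous blood into the brain and were sampled at day 7. ND ICHD7 mice received the same injection after 8 weeks of normal diet (ND). HSD and ND mice were sampled after 8 weeks of diet without ICH. The mice were 4 to 6 weeks old when the diets began, and HSD combined high-sodium chow with salted drinking water. Every mouse returned to ND after ICH, so that the HSD ICHD7 cells came from mice that no longer ate HSD at sampling. Each HSD and ND library was pooled from 3 animals. For the ICH groups no pooling is given in the sources used here.

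NFAT5, also called TonEBP, is the transcription factor that answers hypertonicity: when the fluid around a cell becomes salty, NFAT5 protein accumulates in the nucleus and binds tonicity-responsive enhancers (TonE) of genes that let the cell gather harmless organic solutes in place of salt. It is best known from the renal medulla, and it also acts in macrophages of skin and in T cells exposed to high salt. A parallel branch, in which the kinase WNK1 switches on SPAK (Stk39) and OSR1 (Oxsr1), sets the chloride cotransporters that restore cell volume. Phosphorylation carries that branch, and it was not measured here.

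The libraries held 12286357 to 27491973 reads in listed genes in HSD ICHD7, 12367859 to 15058511 in ND ICHD7, 8678304 to 15469971 in HSD and 13874826 to 14594254 in ND. Genes without a read numbered 9 to 29 per HSD ICHD7 library and 2 to 9 per ND ICHD7 library, against 1543 to 1755 per HSD library and 1393 to 1570 per ND library, so that ICH and this property of the libraries cannot be told apart. The HSPC label was checked against its markers. Kit averaged 390 CPM (reads scaled to a common library size) in HSD ICHD7, 411 CPM in ND ICHD7, 469 CPM in HSD and 442 CPM in ND, whereas Ly6a, the gene of the sorted antigen Sca-1, averaged only 3.42 to 5.99 CPM in the 4 groups. HSD replicate 2 and ND replicate 1 stood apart in macrophage genes, with 673 and 369 CPM summed over 10 macrophage markers, all of which were detected. The other HSD libraries had 80.4 and 97.2 CPM and the other ND libraries 96.1 and 121 CPM, and the ranges were 57.1 to 146 CPM in HSD ICHD7 and 82.0 to 145 CPM in ND ICHD7. The same 2 libraries were also the highest in 8 erythroid markers, with 456 CPM in HSD replicate 2 and 488 CPM in ND replicate 1, whereas the other 10 libraries had 104 to 338 CPM. ND replicate 3 stood apart in 8 neutrophil markers, with 97.2 CPM against 32.3 to 69.1 CPM in the other 11 libraries. HSD ICHD7 replicate 3 had the most reads of all libraries and the smallest sum over 10 HSPC markers, 1089 CPM, whereas the other 11 libraries had 1537 to 1928 CPM.

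All 10 genes were detected in each of the 12 libraries. Per kilobase of merged exons and averaged over the 12 libraries, Wnk1 (18.3 CPM per kb) and Slc38a2 (16.2 CPM per kb) were the most abundant, followed by Nfat5 (9.43 CPM per kb), Slc6a6 (8.72 CPM per kb) and Oxsr1 (7.97 CPM per kb). Akr1b3 (5.71 CPM per kb), Hspa4l (4.86 CPM per kb) and Slc5a3 (3.19 CPM per kb) were intermediate. Stk39 (0.99 CPM per kb) and Sgk1 (0.55 CPM per kb) were the least abundant and were counted from 43 to 100 reads and from 19 to 60 reads per library. Merged exons can be longer than the transcript that is expressed, so this order between genes is approximate. The order was also not the same in every group. Hspa4l had 3.57 and Akr1b3 5.46 CPM per kb in the mean of ND ICHD7, whereas in ND the means were 6.25 and 5.64 CPM per kb. Likewise, Nfat5 had 9.62 and Slc6a6 9.80 CPM per kb in the mean of HSD, whereas in ND the means were 11.1 and 8.73 CPM per kb.

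**Figure D1:**
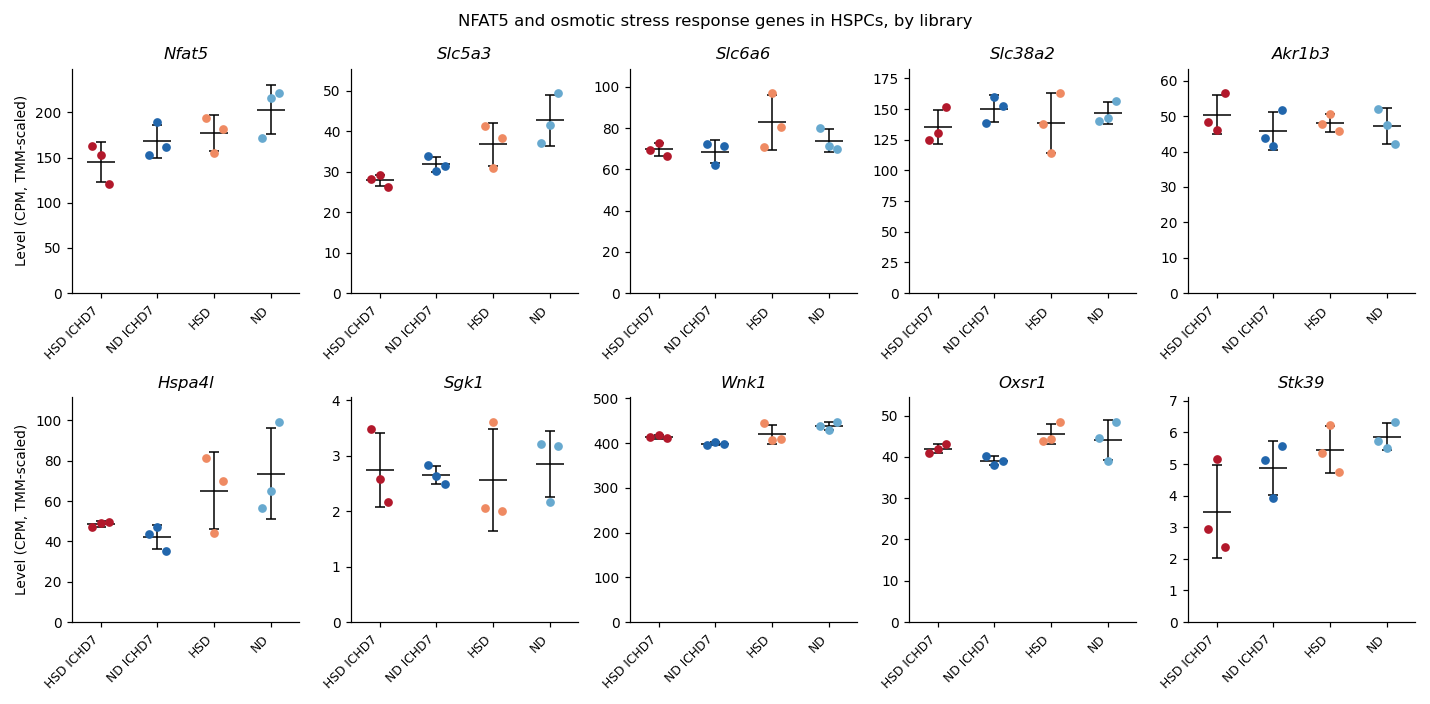
Level of each of the 10 genes by library, in CPM on a linear axis from 0. Points are the 3 libraries of a group (replicates 1 to 3 from left to right), the black line is the group mean and the bar its SD. Group levels overlapped between HSD and ND for every gene. Slc5a3, Hspa4l and Wnk1 were lower in the 3 ND ICHD7 libraries than in any ND library, where 14.3% of all genes tested were.

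NFAT5 sites were looked for in RefSeq promoter windows (GRCm38.p6), which run from 250 bases before to 50 after a gene's start. Windows were found for 8 of the 10 genes, 13 windows in all, and Slc6a6 and Akr1b3 had no entry. The TonE consensus, searched on both strands, was found in 1 of the 13 windows, that of Stk39, whereas it is present in 4.96% of all 32851 windows. Its core TGGAAA, also searched on both strands and part of every TonE, was found in 3 of the 13 windows, those being the Stk39 window and 2 of 6 windows of Sgk1, against 21.4% of all windows. The sequences shown are the stretch before the start of Slc5a3 (chr16:92058072-92058321, plus strand), a member that fell after ICH on ND; the site of Stk39 (chr2:68472188-68472217, minus strand); and the site of Slc6a12 (chr6:121342490-121342519, plus strand), the betaine transporter gene in which TonE is classically described and which had at most 24 reads per library here. Capitals mark the TonE match, which lies 227 to 217 bases before the RefSeq start of Stk39 and 75 to 65 bases before that of Slc6a12, on the strand of the gene. Slc6a12 has 5 windows, of which only this 1 holds a TonE. A longer GENCODE transcript of Stk39 begins upstream of that site, so it lies within an annotated first exon.
Slc5a3: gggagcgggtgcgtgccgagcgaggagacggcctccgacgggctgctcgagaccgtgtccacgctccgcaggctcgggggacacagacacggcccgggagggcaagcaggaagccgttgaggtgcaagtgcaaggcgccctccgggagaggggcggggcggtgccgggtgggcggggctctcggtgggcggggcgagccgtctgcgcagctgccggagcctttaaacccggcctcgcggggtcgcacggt
Stk39: cccagcgcgTGGAAACTTCCctggcggcga
Slc6a12: ggtacttggTGGAAAACTCCagtctgtgat
A match of letters is not a binding site, and these windows leave out the distant enhancers where TonE can lie.

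The first comparison asked whether 8 weeks of HSD alone altered the osmotic genes of HSPCs. None of the 10 passed the test: 0 of 10 had an adjusted p under 0.05 by limma, where 0.0774% of the 16787 genes tested were called, and 0 of 10 had an unadjusted p under 0.05, where 6.93% of all genes did. The edgeR quasi-likelihood test and DESeq2 on the reads recovered from the CPM values also called 0 of 10. HSD and ND libraries overlapped for all 10 genes, whereas 12.8% of the genes tested had groups without overlap. The differences in log2(CPM + 0.5) ran from -0.22 for Slc5a3 to 0.16 for Slc6a6, with a median of -0.10 over the 10 genes and of 0.02 over all genes. Read as folds of CPM + 0.5, the 95% confidence intervals of the 10 genes together spanned 0.611 to 1.317 times ND. Both ends were those of Sgk1, a low gene, for which this scale understates the fold in CPM. Without Sgk1 and Stk39 the span was 0.635 to 1.311. Larger inductions on this scale lay outside each interval.

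Nfat5 itself (ENSMUSG00000003847, chr8:107293470-107379517, plus strand) had 194, 155 and 182 CPM in HSD libraries 1 to 3, against 171, 216 and 222 CPM in ND libraries 1 to 3. The groups overlapped, and the lowest value of each belonged to the library rich in macrophage genes. Its mean was 177 ± 19.8 CPM in HSD and 203 ± 27.6 CPM in ND (SD, n = 3 each), a difference of -0.20 (SE 0.11, 95% confidence interval -0.43 to 0.04, limma adjusted p = 0.766). Without HSD replicate 2 and ND replicate 1 the difference was -0.22, with an adjusted p of 0.236. The upper end of the interval put Nfat5 in HSD at no more than 1.03 times its ND level.

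Of the genes that raise organic osmolytes, Slc5a3 (ENSMUSG00000089774, chr16:92058322-92087473, plus strand), which encodes the sodium-dependent myo-inositol transporter, is a textbook NFAT5 target. It had 41.2, 30.8 and 38.2 CPM in HSD libraries, against 37.1, 41.7 and 49.6 CPM in ND libraries. The values interleaved, and again HSD replicate 2 and ND replicate 1 were the lowest of their groups. The difference was -0.22 (SE 0.13, interval -0.49 to 0.06, adjusted p = 0.775). Slc5a3 shares 159 of its 10913 exon bases with Mrps6 on the same strand, which leaves 1.46% of its length where reads could belong to either gene.

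Slc6a6, the taurine transporter, had 70.8, 97.2 and 80.6 CPM in HSD libraries, against 80.1, 71.3 and 70.1 CPM in ND libraries. Here the libraries rich in macrophage genes were the highest of each group, the reverse of Nfat5 and Slc5a3, and the part of macrophage RNA in these values was not tested. The difference was 0.16 (SE 0.11, interval -0.08 to 0.39, adjusted p = 0.811), and it was 0.10 without those 2 libraries. It was the highest of the 10, and 117 of the 8457 exon bases of Slc6a6 lie opposite Gm44981 on the other strand.

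Slc38a2, the SNAT2 carrier of neutral amino acids, had 138, 115 and 163 CPM in HSD libraries, against 140, 143 and 157 CPM in ND libraries. The 3 HSD values bracketed the whole ND range, and the difference was -0.09 (interval -0.33 to 0.15, adjusted p = 0.898). Akr1b3, aldose reductase, which makes sorbitol from glucose, had 47.7, 50.6 and 45.7 CPM in HSD libraries, against 52.1, 47.6 and 42.0 CPM in ND libraries. The ND values bracketed the HSD range here, and the difference was 0.03 (interval -0.18 to 0.23, adjusted p = 0.977).

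Hspa4l (ENSMUSG00000025757, chr3:40744495-40796103, plus strand) encodes osmotic stress protein 94, a chaperone of the HSP110 family induced by hypertonicity in kidney cells. It had 81.3, 44.1 and 69.7 CPM in HSD libraries, against 56.4, 65.1 and 99.4 CPM in ND libraries. Relative to its mean it was the most scattered of the members above 10 CPM, with SDs of 19.0 CPM in HSD and 22.7 CPM in ND, and the extremes were HSD replicate 2 and ND replicate 3. The difference was -0.18 (SE 0.22, interval -0.66 to 0.29, adjusted p = 0.901), and leaving out HSD replicate 2 moved it to 0.07. Sgk1, the serum- and glucocorticoid-regulated kinase that salt induces in T cells, had 2.05, 3.62 and 2.01 CPM in HSD libraries, against 3.22, 2.17 and 3.17 CPM in ND libraries. The groups overlapped, the highest value of each was in the library rich in macrophage genes, and the difference of -0.16 had an interval of -0.71 to 0.40 (adjusted p = 0.928).

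In the WNK branch, Wnk1 had 444, 407 and 408 CPM in HSD libraries, against 439, 428 and 448 CPM in ND libraries. This was the tightest estimate of the 10, a difference of -0.06 (SE 0.07, interval -0.22 to 0.09, adjusted p = 0.897). Oxsr1, which encodes OSR1, had 43.9, 44.3 and 48.4 CPM in HSD libraries, against 44.6, 38.9 and 48.5 CPM in ND libraries (difference 0.05, interval -0.16 to 0.26, adjusted p = 0.939). Stk39, which encodes SPAK, had 5.37, 6.23 and 4.75 CPM in HSD libraries, against 5.74, 5.52 and 6.35 CPM in ND libraries (difference -0.10, interval -0.47 to 0.27, adjusted p = 0.930). Each of the 3 kinases overlapped between the diets.

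At day 7 after ICH the comparison of HSD ICHD7 with ND ICHD7 HSPCs asked whether earlier HSD left a difference in these genes. None of the 10 was called by limma, the edgeR quasi-likelihood test or DESeq2, and 0 of 10 had an unadjusted p under 0.05 by limma. In this comparison limma called 0 of 20079 genes (0%) at an adjusted p under 0.05, the edgeR test called 0 and DESeq2 called 104, and 15.6% of genes had an unadjusted p under 0.05 by limma. Groups did not overlap for 3 members, against 23.4% of all genes tested: Wnk1 and Oxsr1 were higher in every HSD ICHD7 library (10% of all genes) and Slc5a3 was lower (13.3% of all genes). The median difference over the 10 genes was 0.03, and -0.03 over all genes. Summed HSPC markers were 1089 to 1598 CPM in HSD ICHD7 and 1712 to 1739 CPM in ND ICHD7, and 6 mast cell and basophil markers 70.1 to 100.3 CPM in HSD ICHD7 and 43.4 to 66.7 CPM in ND ICHD7, in both cases without overlap, and their part in the values below was not tested.

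Nfat5 had 163, 152 and 121 CPM in HSD ICHD7 libraries 1 to 3, against 153, 189 and 161 CPM in ND ICHD7 libraries 1 to 3. The groups overlapped, and the lowest value was that of HSD ICHD7 replicate 3. The difference of -0.21 (SE 0.14, interval -0.53 to 0.10, adjusted p = 0.459) was -0.08 without that library.

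Slc5a3 had 28.2, 29.1 and 26.3 CPM in HSD ICHD7 libraries, against 33.8, 30.2 and 31.5 CPM in ND ICHD7 libraries. Every HSD ICHD7 library was below every ND ICHD7 library, by a margin of about 1 CPM at the nearest pair, and the difference was -0.19 (SE 0.11, interval -0.43 to 0.06, adjusted p = 0.406). Slc6a6 was 69.5, 73.0 and 66.6 CPM in HSD ICHD7 libraries, against 72.2, 62.2 and 71.3 CPM in ND ICHD7 libraries (difference 0.03, adjusted p = 0.917). Slc38a2 was 124, 131 and 151 CPM in HSD ICHD7 libraries, against 139, 160 and 153 CPM in ND ICHD7 libraries (difference -0.15, adjusted p = 0.509). Akr1b3 was 48.4, 46.2 and 56.6 CPM in HSD ICHD7 libraries, against 43.9, 41.6 and 51.8 CPM in ND ICHD7 libraries (difference 0.14, adjusted p = 0.592). The last 3 genes overlapped between the groups, and the 4 osmolyte genes did not share a direction: the means of Slc6a6 and Akr1b3 were higher and those of Slc5a3 and Slc38a2 lower in HSD ICHD7.

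Hspa4l had 46.9, 49.1 and 49.7 CPM in HSD ICHD7 libraries, against 43.9, 47.1 and 35.3 CPM in ND ICHD7 libraries. The scatter seen without ICH was absent in HSD ICHD7, where the SD was 1.48 CPM, and the groups overlapped by a single library. The difference was 0.21 (SE 0.13, interval -0.07 to 0.50, adjusted p = 0.409). Sgk1 had 3.48, 2.59 and 2.17 CPM in HSD ICHD7 libraries, against 2.83, 2.63 and 2.50 CPM in ND ICHD7 libraries, and the difference of 0.02 had an interval of -0.46 to 0.51 (adjusted p = 0.964).

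Wnk1 had 413, 419 and 410 CPM in HSD ICHD7 libraries, against 397, 402 and 397 CPM in ND ICHD7 libraries. Its groups did not overlap, yet the means, 414 ± 4.30 CPM in HSD ICHD7 and 399 ± 3.03 CPM in ND ICHD7 (SD, n = 3 each), were close, and with the spread that limma assigns to genes of this level the difference of 0.05 had an interval of -0.18 to 0.29 (adjusted p = 0.810). Oxsr1 had 40.9, 41.9 and 43.2 CPM in HSD ICHD7 libraries, against 40.3, 38.0 and 39.0 CPM in ND ICHD7 libraries, again without overlap (difference 0.10, interval -0.12 to 0.32, adjusted p = 0.609). Stk39 had the lowest difference of the 10, with 2.94, 5.17 and 2.38 CPM in HSD ICHD7 libraries, against 5.13, 3.94 and 5.58 CPM in ND ICHD7 libraries. Replicate 2 of each group crossed into the other, and the difference of -0.48 (SE 0.27, interval -1.09 to 0.13, adjusted p = 0.397) ranged from -0.76 to -0.27 when single libraries were left out.

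**Figure D2:**
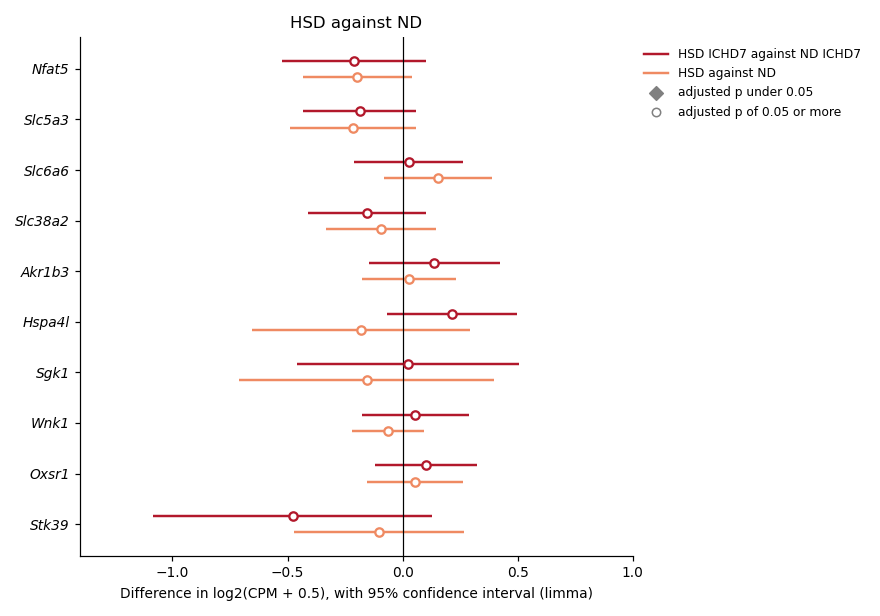
Difference in log2(CPM + 0.5) for HSD ICHD7 against ND ICHD7 (upper bar of each gene) and HSD against ND (lower bar), with the 95% confidence interval from limma. All 20 intervals include 0, and open circles show that no gene had an adjusted p under 0.05. Values lie between -0.48 (Stk39 after ICH) and 0.21 (Hspa4l after ICH).

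The size of the diet difference was then compared between mice with and without ICH as an interaction in 1 limma fit of all 12 libraries. Mice with ICH had returned to ND, so ICH and the end of HSD cannot be told apart in this value. None of the 10 genes was called, and 0 of 10 had an unadjusted p under 0.05, where 0 of 20393 genes (0%) were called and 8.35% had an unadjusted p under 0.05. The edgeR quasi-likelihood test and DESeq2 also called 0 genes. The interaction values ran from -0.37 for Stk39 to 0.40 for Hspa4l, which had a mean lower in HSD than in ND and higher in HSD ICHD7 than in ND ICHD7 (interval -0.26 to 1.05, adjusted p = 0.715). For Nfat5 the interaction was -0.02, with an interval of -0.43 to 0.40.

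The comparison of ICH with no ICH asked how the same genes differed after brain hemorrhage. The 4 groups include no sham operation, so hemorrhage cannot be told apart from the surgery or from the later sampling. On ND, 2 of the 10 genes were called, Slc5a3 and Hspa4l, and both fell. Over all genes limma called 16.7% of 19387 in either direction and 3.23% as lower. Of the 9585 genes with a mean of at least 10 CPM without ICH, a class that holds both, 6.03% were called as lower. At an unadjusted p under 0.05, 3 members were lower, where 10.3% of all genes were: these 2 and Nfat5 (unadjusted p = 0.0447 by limma, adjusted p = 0.163). The means of 9 of the 10 genes were lower after ICH, with a median of -0.15 over the list, of 0.01 over all genes and of -0.08 over the genes with at least 10 CPM, to which 8 of the 10 members belong. Groups did not overlap for 3 members, Slc5a3, Hspa4l and Wnk1, all lower, where 14.3% of all genes were lower without overlap. The libraries with and without ICH also differed in how many genes had no read, as given above, and this cannot be told apart from ICH. Summed HSPC markers were 1712 to 1739 CPM in ND ICHD7 and 1755 to 1908 CPM in ND, and 8 markers of stroma and endothelium 104 to 119 CPM in ND ICHD7 and 83.5 to 95.03 CPM in ND, in both cases without overlap. ND replicate 3, in which Slc5a3 and Hspa4l were highest, was the library rich in neutrophil genes, and the part of these marker differences was not tested. In bulk RNA, fewer cells that express a gene and less RNA per cell cannot be told apart.

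Slc5a3 had 33.8, 30.2 and 31.5 CPM in ND ICHD7 libraries, against 37.1, 41.7 and 49.6 CPM in ND libraries. The groups did not overlap, with means of 31.8 ± 1.84 CPM in ND ICHD7 and 42.8 ± 6.31 CPM in ND (SD, n = 3 each). The difference was -0.41 (SE 0.11, interval -0.67 to -0.16, limma adjusted p = 0.0311), that is, Slc5a3 fell by 24.9%. The call was kept without ND replicate 1, the library rich in macrophage genes (-0.51, adjusted p = 0.0122), and was lost when any of the other 5 libraries was left out, with adjusted p from 0.0866 without ND replicate 2 to 0.145 without ND ICHD7 replicate 3. The unadjusted p by limma in these 5 fits ran from 0.0050 without ND ICHD7 replicate 1 to 0.0216 without ND replicate 3, against 0.0046 with all libraries.

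Hspa4l had 43.9, 47.1 and 35.3 CPM in ND ICHD7 libraries, against 56.4, 65.1 and 99.4 CPM in ND libraries. All ND ICHD7 libraries were below all ND libraries, and the difference was -0.77 (SE 0.19, interval -1.19 to -0.34, adjusted p = 0.0186), so that Hspa4l fell by 41.3%. ND replicate 3 carried part of its size: without it the difference was -0.53 (adjusted p = 0.0306). The call was lost without ND ICHD7 replicate 1 (-0.80, unadjusted p = 0.0028 by limma, adjusted p = 0.0811). It was also lost without ND ICHD7 replicate 3 (-0.65, unadjusted p = 0.0077 by limma, adjusted p = 0.123). In these 2 fits the calls over all genes went from 3245 to 342 and to 264. With the filter that keeps only genes above 10 CPM in at least 3 libraries, which the study states, neither Hspa4l (adjusted p = 0.0895) nor Slc5a3 (adjusted p = 0.104) was called. Their unadjusted p by limma were 0.0036 and 0.0055 there, against 0.0024 and 0.0046 in the main test. With that filter the calls over all genes went from 3245 to 116, and an adjusted p depends on which genes are tested together. With the main filter, the edgeR quasi-likelihood test and DESeq2 also called both Hspa4l and Slc5a3.

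HSD ICHD7 mice had returned to ND after ICH, whereas HSD mice were sampled on HSD, so ICH and salt withdrawal cannot be told apart. In HSD ICHD7 against HSD, 0 of the 10 genes were called. Over all genes limma called 6.58% of 18082 in either direction and 1.26% as lower. The edgeR quasi-likelihood test and DESeq2 also called 0 of the 10. By limma 2 members were lower at an unadjusted p under 0.05, Slc5a3 and Stk39, where 9.73% of all genes were, and 2 were lower without overlap, Slc5a3 and Oxsr1, where 14.5% of all genes were. Markers moved without overlap here too: HSPC markers summed to 1089 to 1598 CPM in HSD ICHD7 and 1743 to 1928 CPM in HSD, neutrophil markers to 61.6 to 69.1 CPM in HSD ICHD7 and 32.8 to 39.8 CPM in HSD, and mast cell and basophil markers to 70.1 to 100.3 CPM in HSD ICHD7 and 44.3 to 53.2 CPM in HSD. Their part in the member and list values on HSD was not tested. Slc5a3 had 28.2, 29.1 and 26.3 CPM in HSD ICHD7 libraries, against 41.2, 30.8 and 38.2 CPM in HSD libraries. HSD replicate 2 came closest to the HSD ICHD7 range without entering it, and the difference of -0.38 (SE 0.13, interval -0.67 to -0.10, adjusted p = 0.126) was not called. In 1 fit of all 12 libraries, where the spread is estimated from all groups, it was called (adjusted p = 0.0462). Stk39 had 2.94, 5.17 and 2.38 CPM in HSD ICHD7 libraries, against 5.37, 6.23 and 4.75 CPM in HSD libraries (difference -0.63, interval -1.24 to -0.02, adjusted p = 0.221), and HSD ICHD7 replicate 2 lay within the HSD range. Hspa4l had 46.9, 49.1 and 49.7 CPM in HSD ICHD7 libraries, against 81.3, 44.1 and 69.7 CPM in HSD libraries. HSD replicate 2 lay below the HSD ICHD7 range and the other HSD libraries far above it, so that the difference was -0.37 (interval -0.81 to 0.06, adjusted p = 0.301) with that library and -0.63 (adjusted p = 0.0319) without it.

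Nfat5 was -0.29 (interval -0.59 to 0.02, adjusted p = 0.258) in HSD ICHD7 against HSD and -0.27 (interval -0.53 to -0.01, adjusted p = 0.163) in ND ICHD7 against ND. Its libraries with and without ICH overlapped on both diets, and without ND replicate 1 it was called as lower on ND (-0.39, adjusted p = 0.0394). Slc6a6 was -0.24 and -0.11, Slc38a2 -0.02 and 0.04, Akr1b3 0.06 and -0.05, and Sgk1 0.11 and -0.08 in HSD ICHD7 against HSD and in ND ICHD7 against ND. Wnk1 was -0.02 and -0.14 and Oxsr1 -0.11 and -0.16 in these comparisons, and the Oxsr1 libraries of HSD ICHD7 lay below those of HSD without overlap. Stk39 was -0.25 in ND ICHD7 against ND. None of the 13 values for these 7 genes was called, and their intervals all included 0 and together ran from -0.64 to 0.72.

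**Figure D3:**
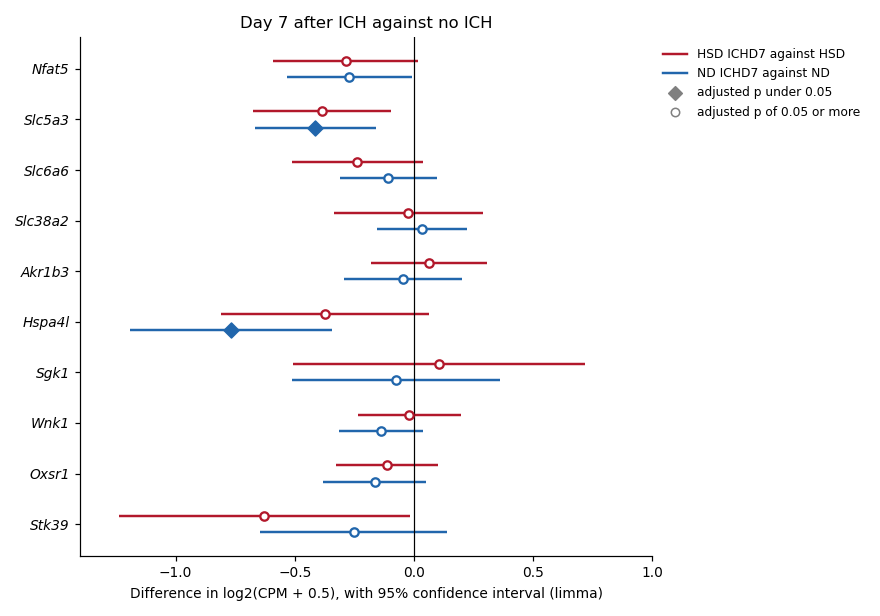
Difference in log2(CPM + 0.5) at day 7 after ICH against no ICH, on HSD (upper bar of each gene) and on ND (lower bar), with the 95% confidence interval from limma. HSD ICHD7 mice had returned to ND after ICH, so the upper bars do not separate ICH from salt withdrawal. Filled diamonds mark the 2 values with an adjusted p under 0.05, Slc5a3 (-0.41) and Hspa4l (-0.77), both on ND; the HSD values of these genes were -0.38 and -0.37 and were not called.

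Other genes of the osmotic pathway were followed through a list of 62 in 8 groups, of which 58 were in the files. For HSD against ND, 0 of the 50 list genes tested were called by limma (background 0.0774%), while before adjustment 3 genes were higher (3.65% of all genes) and 2 lower (3.28%) in HSD with p under 0.05. The 3 higher were Trpv4, an osmosensitive calcium channel (2.92 ± 1.48 CPM in HSD and 1.52 ± 0.13 CPM in ND, SD, difference 0.68), Slc12a4, the potassium-chloride cotransporter KCC1 (0.46), and Isyna1, which makes inositol from glucose phosphate (0.20). The highest Trpv4 value, 4.62 CPM, was in HSD replicate 2, and without that library and ND replicate 1 the difference was 0.30. The 2 lower were Map2k6, a kinase upstream of p38 (-0.30), and the co-chaperone Dnajb1 (-0.36), which had 53.1, 47.3 and 49.97 CPM in HSD libraries, against 55.5, 68.8 and 70.1 CPM in ND libraries. Dnajb1 did not overlap between the groups, its adjusted p was 0.383, and it was called as lower (-0.43, adjusted p = 0.0259) without HSD replicate 2 and ND replicate 1. By group, the lowest median was that of the 3 tested chaperones, -0.79, of which Hspa1a and Hspa1b are near-identical copies. Hspa1a overlapped widely between the diets, with 62.5, 10.05 and 25.8 CPM in HSD libraries and 8.82, 60.0 and 164 CPM in ND libraries. The next lowest median was -0.30 for the 3 NFAT5 targets of immune cells (Vegfc, Nos2 and Tnf). The other medians were 0.05 for 10 genes of osmolyte transport and metabolism, -0.02 for 10 kinases and partners upstream of NFAT5, 0.01 for 7 genes of the WNK-SPAK-OSR1 cascade, 0.05 for 5 cation-chloride cotransporters, -0.03 for 6 SGK kinases and targets and 0.04 for 6 volume-regulated channels and osmosensors, beside 0.02 over all genes.

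For HSD ICHD7 against ND ICHD7, 0 of 57 list genes were called by limma (background 0%), while before adjustment 3 genes were higher (5.42% of all genes) and 5 lower (10.2%) in HSD ICHD7 with p under 0.05. The 3 higher were Cab39 and Cab39l, the MO25 partners that activate SPAK and OSR1, and the GTPase Rac1. Cab39 averaged 82.9 ± 9.03 CPM in HSD ICHD7 and 64.6 ± 2.95 CPM in ND ICHD7 (SD, difference 0.35, adjusted p = 0.260). Cab39l (0.28) and Rac1 (0.27) were, like Cab39, above all ND ICHD7 libraries in all HSD ICHD7 libraries. The lowest p among the 5 lower belonged to Gdpd5, which breaks down the osmolyte glycerophosphocholine and which hypertonicity represses in kidney (-0.85, adjusted p = 0.256), then Sgk2 (-0.81) and Slc12a7, the cotransporter KCC4 (-0.45). Sgk2 had 3, 9 and 8 reads in HSD ICHD7 libraries, against 16, 19 and 12 reads in ND ICHD7 libraries. It entered the test only through the ND ICHD7 libraries, where it is high, so nothing is read from its place among the lower genes. Gdpd5 averaged 1.53 ± 0.48 CPM in HSD ICHD7 and 3.14 ± 0.59 CPM in ND ICHD7 (SD). The list median was -0.09, beside -0.03 over all genes.

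**Figure D4:**
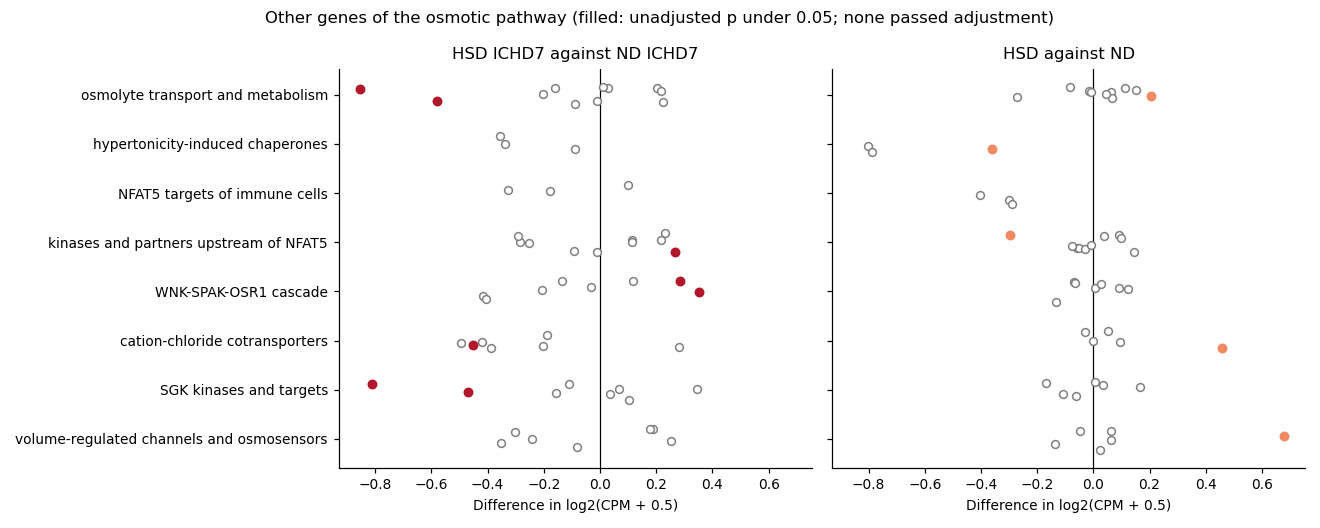
Difference in log2(CPM + 0.5) of the other osmotic pathway genes tested, by group, for HSD ICHD7 against ND ICHD7 (left) and HSD against ND (right). Filled points have an unadjusted p under 0.05 (8 genes on the left and 5 on the right), and none had an adjusted p under 0.05.

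After ICH on ND, 11 of 57 list genes were called (background 16.7%), 7 higher (background 13.5%) and 4 lower (background 3.23%). The 4 lower were expressed at 24.5 to 44.8 CPM in the mean of ND ICHD7 and at 31.5 to 64.8 CPM in the mean of ND, a range in which the background is the 6.03% of genes with at least 10 CPM. Dnajb1 averaged 41.3 ± 3.65 CPM in ND ICHD7 and 64.8 ± 8.06 CPM in ND (SD, difference -0.64, adjusted p = 0.0020). Pnpla6, the phospholipase that supplies glycerophosphocholine (-0.36), Slc12a7 (-0.30) and Fyn, a kinase upstream of NFAT5 (-0.29), were the others, and their adjusted p lay between 0.0213 and 0.0483. Dnajb1 kept its call when any single library was left out, whereas these 3 lost theirs without each of the 6 libraries in turn (adjusted p from 0.0512 to 0.203) and with DESeq2. Their unadjusted p by limma with single libraries left out ran from 0.0023 (Fyn without ND ICHD7 replicate 2, -0.32) to 0.0371 (Slc12a7 without ND replicate 1). An adjusted p depends on which genes are tested together. Leaving out ND ICHD7 replicate 2 took the calls over all genes from 3245 to 424. The calls of these 3 were also lost with the 10 CPM filter (adjusted p from 0.0841 to 0.122). The 7 higher were Slc6a12, Wnk2, Slc12a1, Slc12a3, Sgk2, Lrrc8e and Scnn1a; they include several genes best known from the kidney tubule, and 6 of them averaged under 1 CPM in ND. Slc6a12 had 20, 24 and 15 reads in ND ICHD7 libraries, against 1, 2 and 1 reads in ND libraries. Slc12a1, the NKCC2 cotransporter of the renal loop of Henle, had 31, 23 and 18 reads in ND ICHD7 libraries, against 0, 0 and 1 reads in ND libraries. These 6 genes had under 10 reads in every ND library and so entered the test only through the ND ICHD7 libraries, which left them little room but to be called as higher. Of all 3616 tested genes with a mean under 1 CPM in ND, 62.2% were called as higher; these could enter in the same way, and nothing is read from either count. Scnn1a, a subunit of the epithelial sodium channel (0.98, adjusted p = 0.0262), lost its call without any library but ND replicate 1 (adjusted p from 0.0889 to 0.142).

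In HSD ICHD7 against HSD, where ICH and the return to ND cannot be told apart, 4 of 53 list genes were called (background 6.58%). Of these, 2 were higher (background 5.31%) and 2 lower (background 1.26%). Slc6a12 had 12, 11 and 13 reads in HSD ICHD7 libraries and no read in any HSD library, which is at least 7.735-fold higher against a floor of 3 reads over the HSD group. Slc12a1 had 24, 16 and 14 reads in HSD ICHD7 libraries, against 0, 0 and 1 reads in HSD libraries, and of the 2388 tested genes with a mean under 1 CPM in HSD 32.7% were called as higher. Both genes entered the test only through the HSD ICHD7 libraries, where they are high, as genes of that class could, so nothing is read from these calls. The call of Slc6a12 was lost without HSD replicate 1 (adjusted p = 0.0719) or HSD replicate 3 (adjusted p = 0.0601), and that of Slc12a1 without any single HSD library (adjusted p from 0.0601 to 0.0879). The 2 lower, beside a background of 2.12% for genes with at least 10 CPM, were Slc12a7 (-0.85, SE 0.15, adjusted p = 0.0098) and Lrrc8a, the required subunit of the volume-regulated anion channel (-0.54, SE 0.11, adjusted p = 0.0189). Slc12a7 had 28.3, 23.7 and 19.6 CPM in HSD ICHD7 libraries, against 43.1, 46.8 and 39.1 CPM in HSD libraries. The groups were far apart, and the call was lost without HSD replicate 1 (adjusted p = 0.0569) or HSD ICHD7 replicate 2 (adjusted p = 0.0812). Lrrc8a had 23.4, 23.0 and 20.9 CPM in HSD ICHD7 libraries, against 30.7, 34.9 and 33.2 CPM in HSD libraries, and its call was kept only without HSD ICHD7 replicate 3 when single libraries were left out (adjusted p otherwise from 0.0684 to 0.117). In the leave-out fits that lost the call of Slc12a7 or Lrrc8a, the unadjusted p by limma ran from 0.00099 to 0.0038. Over all genes 56 to 671 were called with single libraries left out, against 1189 with all. With the filter at 10 CPM neither Slc12a7 (adjusted p = 0.0575) nor Lrrc8a (adjusted p = 0.0775) was called. Of the genes not called, Cab39l (0.51, adjusted p = 0.0823) and Dnajb1 (-0.37, adjusted p = 0.0665) had the lowest p of their direction. Whether Slc12a7 fell further in the mice fed HSD, which had also returned to ND after ICH, was tested as the interaction. It was not called (-0.55, unadjusted p = 0.0074 by limma, adjusted p = 0.527), and 0 of 57 list genes were (background 0%). The interaction had an unadjusted p under 0.05 for 3 list genes with a positive value (2.22% of all genes), Map2k6 (0.53), Cab39l (0.42) and the channel subunit gene Lrrc8d (0.31), and for 4 with a negative value (6.13% of all genes), among them Slc12a7, Sgk2 (-0.73) and Ndrg1, an SGK1 substrate (-0.50). Sgk2 held 10 or more reads only in the ND ICHD7 libraries (16, 19 and 12 reads) and so entered this test through them. Their level counts negatively in the interaction, so nothing is read from the value of Sgk2.

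The chaperones set Hspa4l in context. Hspa1a and Hspa1b, inducible HSP70 genes that heat and other stresses raise, are near-identical copies whose reads may be split between them, so each is given as uncertain. Hspa1a had 30.1, 8.65 and 30.5 CPM in HSD ICHD7 libraries, 7.30, 58.0 and 39.3 CPM in ND ICHD7 libraries, 62.5, 10.05 and 25.8 CPM in HSD libraries and 8.82, 60.0 and 164 CPM in ND libraries. The 4 groups overlapped in Hspa1a, and each held libraries far apart from one another. In the 6 libraries without ICH, Hspa4l was high where Hspa1a was high: the lowest Hspa4l values, 44.1 and 56.4 CPM, were in HSD replicate 2 and ND replicate 1, where Hspa1a was also lowest, and the highest, 99.4 CPM, was in ND replicate 3, where Hspa1a was highest. These 2 low libraries are those rich in macrophage and erythroid genes. The 6 libraries with ICH did not follow this order: ND ICHD7 replicate 3 had the lowest Hspa4l, 35.3 CPM, with 39.3 CPM of Hspa1a, and HSD ICHD7 replicate 2 had 49.1 CPM of Hspa4l with 8.65 CPM of Hspa1a. The values of both genes come from the same libraries, and the part of a change shared with Hspa1a in the fall of Hspa4l on ND was not tested. Among the 3 chaperones of the list in the files, Dnajb1 was the only one called as lower in ND ICHD7.

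**Figure D5:**
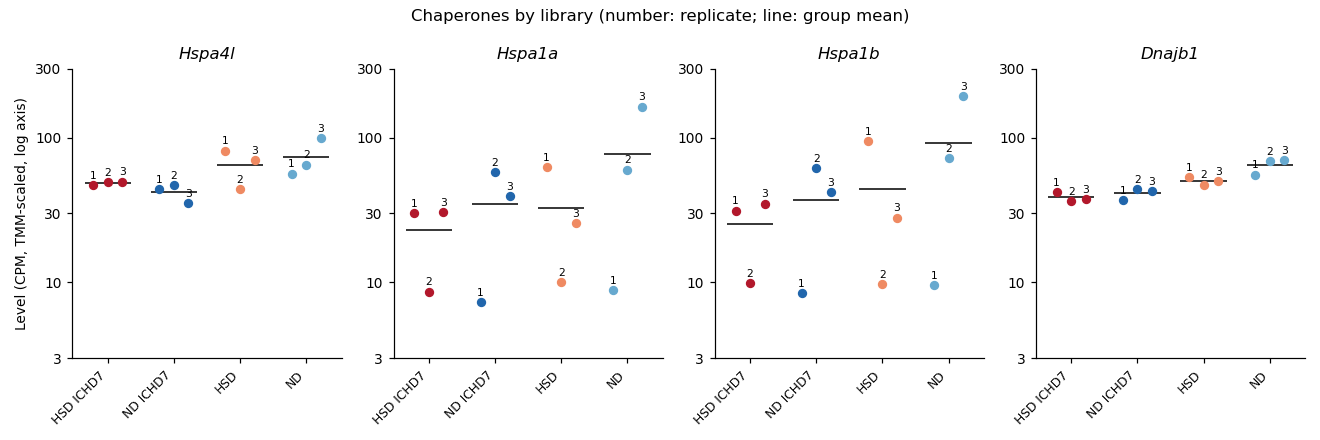
Level of Hspa4l, Hspa1a, Hspa1b and Dnajb1 by library in CPM on a log axis, with the replicate number above each point and a line at the group mean. Hspa1a runs between 7.30 and 58.0 CPM within ND ICHD7 and between 8.82 and 164 CPM within ND, whereas Hspa4l in HSD ICHD7 stays between 46.9 and 49.7 CPM.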

How the data were processed

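HSPC RNA libraries were made with a stranded SMART-Seq kit. Alignment to mm10 with Rsubread and gene counting with featureCounts were done by the authors, who deposited TMM-scaled CPM values from edgeR (version 3.24.3 in the submitters' processing notes), 1 table per library. Whether strand was used in counting is not given in the sources used here. The study states a filter at 10 CPM in at least 3 samples, but the tables list genes below it. Dividing by the CPM of 1 read gave whole reads for at least 99.99% of values (within 0.01 of a read). Library totals set the precision of low genes; counting error is smallest for Wnk1 and largest for Sgk1.

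Groups followed the diet and treatment labels. The main test was limma 3.58.1 (R 4.3.3, trend) on log2(CPM + 0.5), for genes that held 10 or more reads each in 3 or more libraries of a test, with Benjamini-Hochberg adjustment over all genes tested and a call at an adjusted p under 0.05; fold changes on this scale understate the change of low genes. Each pair of groups had a fit of its own 6 libraries, and the interaction a fit of 12. The p-values measure the spread between these libraries. Alternatives were edgeR 4.0.16 and DESeq2 1.42.0 on recovered reads, pseudocounts of 0.1 and 1, no filter, the 10 CPM filter, 1 fit of all libraries, a replicate block, and leaving out libraries. The fits were tested on simulated data. All 10 genes and every list gene called, or with the 3 smallest unadjusted p under 0.05 per direction, were named. The members and lists were chosen with earlier results of these data known. Gene positions and merged exon lengths came from GENCODE M21, in which 20550 of 20792 identifiers were found, and promoters from RefSeq. List genes not analysed here were Cryab, Hspb1, Ccl2 and Scnn1g.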

Additional observations from a re-analysis of the deposited data

How the results depend on the processing

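No member was called for the diet under any alternative: 0 of 10 genes were called for HSD against ND, for HSD ICHD7 against ND ICHD7 and for the interaction by limma with other pseudocounts and filters, the edgeR quasi-likelihood test, DESeq2, 1 fit of all 12 libraries, the replicate block and each set of libraries left out. Few or no genes of any kind were called in these comparisons, so 0 of 10 could hardly come out otherwise and is not read as robustness. Over all genes, the count for HSD against ND was 13, and it was 66 with DESeq2, 8 with no filter, 1 in the fit of 12 libraries, 91 without both ND replicate 1 and HSD replicate 2, and 8 to 22 with single libraries left out. For HSD ICHD7 against ND ICHD7 it was 0, against 104 with DESeq2 and 297 in the fit of 12. The 2 members called in ND ICHD7 against ND became 0 with the 10 CPM filter and 0 to 3 with single libraries left out, and the 3245 genes called became 116 and 264 to 2995. For HSD ICHD7 against HSD, 0 members became 1 in the fit of 12 libraries (Slc5a3) and 0 to 1 with single libraries left out, and 1189 genes became 2384 with no filter, 44 with the 10 CPM filter, 3544 in the fit of 12 and 56 to 671. Except where said, the cause was not tested.

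Of 760 recomputed member values, 38 had the other sign, all of them of values that were not called, the largest of which was Hspa4l for HSD against ND (-0.18). For HSD against ND, Slc38a2 was 0.0049 without both libraries. For HSD ICHD7 against HSD, Wnk1 was 0.0074 with edgeR and 0.0099 with DESeq2. The interaction of Nfat5 was 0.0087 with edgeR, 0.0037 with DESeq2 and 0.011 without both libraries. With single libraries left out, HSD against ND ran from -0.22 to 0.036 for Slc38a2, -0.053 to 0.10 for Akr1b3, -0.36 to 0.074 for Hspa4l and -0.032 to 0.13 for Oxsr1, and HSD ICHD7 against ND ICHD7 from -0.042 to 0.065 for Slc6a6 and -0.13 to 0.16 for Sgk1. ND ICHD7 against ND ran from -0.0096 to 0.093 for Slc38a2, -0.14 to 0.027 for Akr1b3 and -0.23 to 0.0072 for Sgk1. HSD ICHD7 against HSD ran from -0.15 to 0.10 for Slc38a2, -0.022 to 0.12 for Akr1b3, -0.052 to 0.34 for Sgk1 and -0.041 to 0.022 for Wnk1. The interaction ran from -0.11 to 0.11 for Nfat5, -0.091 to 0.13 for Slc5a3, -0.19 to 0.066 for Slc38a2 and -0.023 to 0.13 for Oxsr1.

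Replicate numbers did not pair the libraries: deviations of same-numbered libraries correlated between -0.19 and 0.09, and 0 of 12 libraries correlated best with their own number in every other group. The replicate block called 16, 0, 3304, 1081 and 0 genes for HSD against ND, HSD ICHD7 against ND ICHD7, ND ICHD7 against ND, HSD ICHD7 against HSD and the interaction, and 2 members, both in ND ICHD7 against ND. Precision was limited for Sgk1 and Stk39, which had 19 to 100 reads per library. The filter at 10 CPM removed both, so it gave no value for them.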
